A study of Homo sapiens with 8 samples.

Results

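Peaks of 4 genes of lipid synthesis were followed: FDFT1, SREBF2, ACLY and ACSL3. They were chosen with earlier results of the same deposited counts of ac4C-immunoprecipitated RNA in view, so their values are given as a description with no test. Every deposited peak interval assigned to the GRCh38 span of a member was taken, which gave 5 of 31395 peaks, or 4 of the 9104 genes that had an assigned peak. FDFT1, SREBF2 and ACSL3 had 1 peak each and ACLY had 2, and no further peak overlapped their spans. All 5 passed the filter on low counts.

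The study compared 2 human osteosarcoma cell lines, 143B and HOS, each as a control named NC and as cells named sgNAT10, which the labels give as NAT10 knockouts. 143B was derived from HOS. Poly(A) RNA was fragmented, and fragments bound by an antibody against N4-acetylcytidine (ac4C) were sequenced (acRIP). The groups used here were 143B NC, 143B sgNAT10, HOS NC and HOS sgNAT10, with 1 library each, and the input libraries were not used here. The labels name no treatment, no spike-in and no guide sequence, and they do not say whether sgNAT10 cells were 1 clone or a pool. With 1 library a group there are no replicates, so no test within a line was possible. Intervals given below are 95% intervals that cover counting error only, and, as the labels name no molecular identifiers, copies of 1 molecule were counted as separate reads.

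NAT10 is the acetyltransferase that writes ac4C into RNA. Sterols and fatty acids are both built from cytosolic acetyl-CoA. ATP-citrate lyase, the product of ACLY, makes this acetyl-CoA from citrate. Squalene synthase, the product of FDFT1, joins farnesyl units into squalene and so commits the mevalonate pathway to sterols. SREBP-2, the product of SREBF2, is a membrane-bound transcription factor that is cut and moves to the nucleus when sterols are scarce, where it turns on genes of sterol synthesis. ACSL3 is a long-chain acyl-CoA synthetase of the endoplasmic reticulum and lipid droplets, which activates fatty acids by joining them to coenzyme A. Tumour cells often make lipids in this way, and the genes of both branches are commonly switched on together by SREBP factors.

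The promoters of the members are shown because SREBP factors act through short elements in promoters. RefSeq windows (GRCh38.p14) matched 3 of 4 members by symbol, and FDFT1 is named only. The 250 bases before the start of each transcript are printed 5′ to 3′. Capitals mark the sterol regulatory element TCACNCCAC, the CCAAT box and the GC box GGGCGG, searched on both strands, with matches allowed to overlap.
SREBF2, chr22:41832855-41833104, plus strand: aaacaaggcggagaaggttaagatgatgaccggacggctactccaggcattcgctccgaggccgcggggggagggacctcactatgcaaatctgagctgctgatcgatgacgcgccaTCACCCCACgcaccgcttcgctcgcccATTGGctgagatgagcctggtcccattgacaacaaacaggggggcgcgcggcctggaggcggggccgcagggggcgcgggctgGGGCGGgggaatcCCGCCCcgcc
ACLY, chr17:41919023-41919272, minus strand: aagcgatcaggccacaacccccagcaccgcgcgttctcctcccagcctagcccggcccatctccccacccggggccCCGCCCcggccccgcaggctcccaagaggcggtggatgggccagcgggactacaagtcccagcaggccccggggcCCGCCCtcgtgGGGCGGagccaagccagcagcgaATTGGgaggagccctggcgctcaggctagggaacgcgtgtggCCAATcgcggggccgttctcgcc
ACSL3, chr2:222860786-222861035, plus strand: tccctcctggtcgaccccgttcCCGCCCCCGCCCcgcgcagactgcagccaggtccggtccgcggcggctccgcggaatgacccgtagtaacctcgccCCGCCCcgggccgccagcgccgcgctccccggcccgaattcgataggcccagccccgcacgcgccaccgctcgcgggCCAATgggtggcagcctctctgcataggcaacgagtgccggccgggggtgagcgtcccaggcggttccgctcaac
The SREBF2 window held 1 sterol regulatory element, whose first base lay 133 bases before the start, and 1 CCAAT box at 106 bases. Such an element was found in 310 of 35116 promoter windows of the same length (0.883%). Neither the ACLY window nor the ACSL3 window held it, and the search covered these 250 bases alone. A second RefSeq start of ACLY gave an overlapping window, also without it. Of 18 listed sterol synthesis enzymes 0 held the element, so its absence does not set ACLY and ACSL3 apart. ACLY had 2 CCAAT boxes in the window shown and ACSL3 had 1, where 32.0% of all windows held at least 1. GC boxes numbered 2 in SREBF2, 3 in ACLY and 3 in ACSL3, and 42.6% of all windows held at least 1. These matches describe letters and are not evidence of binding.

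The libraries had 20107718 to 24785306 counts over all peaks, and counts were scaled with TMM factors. The library labelled 143B sgNAT10 stood apart, with Spearman correlations across peaks of 0.583 to 0.718 with the others, against 0.803 to 0.865 among the remaining 3. Every 143B shift below rests on it, and the HOS shifts do not. NAT10 had 180 counts in HOS NC and 63 in HOS sgNAT10, but 65 in 143B NC and 130 in the library labelled 143B sgNAT10. After scaling its log2 shift, sgNAT10 minus NC, was -1.85 (-2.30 to -1.44) in HOS and 0.50 (0.06 to 0.95) in 143B. The target's own acRIP count thus goes against that label, by 1.41-fold and with an interval that comes close to 0. The sign of this 143B shift turned only with centring on 3' end peaks, chosen after the data were seen, which moves every 143B shift by -0.81. The other scalings moved 143B shifts by -0.13 to 0.34, which leaves the value above 0, though not always its whole interval. A count of NAT10 RNA does not report its protein. Of 12 osteoblast and mesenchymal markers 6 had a peak, VIM, SPARC and RUNX2 among them, and COL1A1 and COL1A2 had none. Peaks were also found for 3 of 9 epithelial, 3 of 8 blood and 3 of 5 endothelial markers. Summed CPM of the osteoblast and mesenchymal markers was 521 (NC) and 275 (sgNAT10) in 143B, and 998 (NC) and 957 (sgNAT10) in HOS. This sum was nearly all VIM, at 487, 246, 920 and 924 CPM in the same order. Single markers did not move together, with SPARC at 23.4, 24.2, 68.2 and 18.7 and RUNX2 at 8.59, 2.42, 7.37 and 12.7. The epithelial sum was 64.2, 89.4, 121 and 108 in the same order, the blood sum 75.5, 9.998, 53.7 and 102, and the endothelial sum 8.54, 9.14, 3.05 and 39.7. The blood sum was nearly all CD68, at 74.9, 9.04, 53.4 and 100.5 CPM, while PTPRC had at most 22 counts. EPCAM had no peak. In HOS NC and HOS sgNAT10, CDH1 had 5 and 812 counts, but KRT18 had 1511 and 1220 and KRT8 675 and 460. KDR had 18 and 855 counts there, against 29 and 51 for VWF and 8 and 8 for TEK. The part of these markers in the results was not tested.

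FDFT1 had a single peak of 129 bp (Gene ID 2222, chromosome 8, 11838801 to 11838930), 368 bp inside the high-coordinate end of its span of 43717 bp. The 143B counts were 48 (NC) and 209 (sgNAT10), and the HOS counts were 115 (NC) and 55 (sgNAT10). FDFT1 was thus high in the library labelled 143B sgNAT10 and in HOS NC, and low in the other pair. As normalised counts (CPM) the high pair had 7.44 (6.46 to 8.52) in 143B sgNAT10 and 6.37 (5.26 to 7.65) in HOS NC, and the low pair had 2.41 (1.78 to 3.20) in 143B NC and 2.39 (1.80 to 3.11) in HOS sgNAT10. Intervals overlapped within each pair and not between the pairs. The log2 shift of FDFT1, sgNAT10 minus NC, was 1.61 (1.17 to 2.11) in 143B, or 3.05-fold higher. In HOS it was -1.40 (-1.91 to -0.94), or 2.64-fold lower. These bulk counts mix the amount of RNA with its recovery by the antibody, and fewer cells of a kind and less RNA per cell cannot be told apart.

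SREBF2 had a peak of 198 bp at the very end of its transcript (Gene ID 6721, chromosome 22, 41907097 to 41907295, 10 bp from the end of the span on the plus strand). In 143B it had 59 counts with NC and 185 with sgNAT10, and in HOS 87 with NC and 73 with sgNAT10. The library labelled 143B sgNAT10 was again the highest, and 143B NC had the fewest counts. CPM ran in the order 6.58 (5.67 to 7.60) in 143B sgNAT10, 4.82 (3.86 to 5.94) in HOS NC, 3.17 (2.48 to 3.98) in HOS sgNAT10 and 2.96 (2.26 to 3.82) in 143B NC. Each pair of neighbours in this order had overlapping intervals. The shift was 1.14 (0.72 to 1.60) in 143B, 2.20-fold higher, and -0.60 (-1.07 to -0.14) in HOS, 1.51-fold lower. With library totals alone in place of TMM the HOS shift of SREBF2 was -0.023, so its HOS value rests on the scaling. The promoter element printed above lies at the opposite end of this gene, 73992 bp of the span away from the peak.

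ACLY had 2 peaks that behaved differently in 143B and alike in HOS (Gene ID 47, minus strand). The peak at the transcript end (chromosome 17, 41866928 to 41867136, 11 bp from the end) had 98 (NC) and 319 (sgNAT10) counts in 143B, and 183 (NC) and 81 (sgNAT10) in HOS. As for FDFT1, the library labelled 143B sgNAT10 and HOS NC were high. Its CPM was 11.35 (10.1 to 12.7) in 143B sgNAT10, 10.1 (8.72 to 11.7) in HOS NC, 4.92 (3.997 to 6.001) in 143B NC and 3.52 (2.79 to 4.37) in HOS sgNAT10. Shifts of the end peak were 1.20 (0.87 to 1.55) in 143B, 2.29-fold higher, and -1.52 (-1.92 to -1.14) in HOS, 2.86-fold lower.

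The internal ACLY peak (chromosome 17, 41878042 to 41878243) lay 11125 bp from the transcript end. NC and sgNAT10 had 128 and 104 counts in 143B, and 315 and 101 counts in HOS. Here HOS NC stood alone at the top, with 17.4 CPM (15.6 to 19.5), and the other libraries had 6.43 (5.37 to 7.65) in 143B NC, 4.38 (3.57 to 5.33) in HOS sgNAT10 and 3.70 (3.02 to 4.48) in 143B sgNAT10. The shift was -0.79 (-1.18 to -0.41) in 143B and -1.98 (-2.33 to -1.66) in HOS, 3.95-fold lower. In 143B the ACLY peaks therefore lay on opposite sides of 0, and their sum gave a shift of 0.41 (0.17 to 0.65) that describes neither. The HOS sum was -1.80 (-2.06 to -1.56).

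ACSL3 had a single internal peak of 158 bp (Gene ID 2181, chromosome 2, 222866683 to 222866841), 5647 bp from the start of its span of 83604 bp on the plus strand. Whether it lies in an exon was not established, since the annotation used here gives no exons. Its counts in NC and sgNAT10 were 258 and 212 in 143B, and 242 and 237 in HOS. The raw counts were nearly level. By CPM ACSL3 had the libraries in the same order as the internal ACLY peak, and not in that of the member peaks near gene ends. CPM was 13.4 (11.8 to 15.2) in HOS NC, 13.0 (11.4 to 14.6) in 143B NC, 10.3 (9.02 to 11.7) in HOS sgNAT10 and 7.54 (6.56 to 8.63) in 143B sgNAT10. The NC libraries overlapped, and the library labelled 143B sgNAT10 was below every other. Shifts were -0.78 (-1.05 to -0.51) in 143B, 1.71-fold lower, and -0.38 (-0.65 to -0.12) in HOS, 1.30-fold lower. The HOS value turned to 0.20 with library totals alone.

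**Figure D1:**
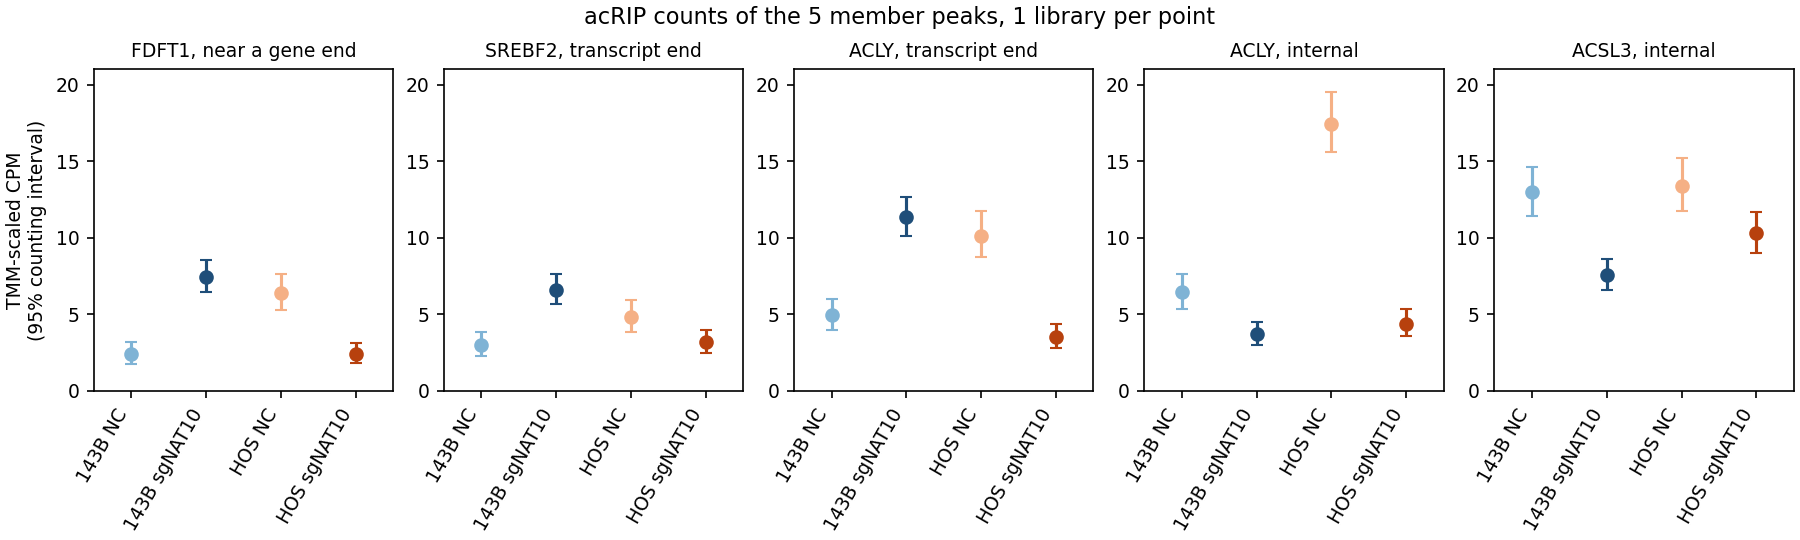
TMM-scaled CPM of the 5 member peaks (vertical axis) in the 4 acRIP libraries (horizontal axis), 1 point per library, with bars for the 95% Poisson interval of the count. The FDFT1 peak and the ACLY end peak are high in 143B sgNAT10 (7.44 and 11.35) and HOS NC (6.37 and 10.1), while the internal ACLY and ACSL3 peaks are lowest in 143B sgNAT10 (3.70 and 7.54).

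Counted over gene sums, 2 of 4 members were 2-fold or more higher in 143B sgNAT10, FDFT1 and SREBF2, where 20.4% of all 8068 gene sums were, and 0 of 4 were 2-fold or more lower, against 17.6%. In HOS 2 of 4 were 2-fold or more lower, FDFT1 and ACLY, against 12.7% of all gene sums, and 0 of 4 were 2-fold or more higher, against 16.8%. Over peaks, 3 of 5 were 2-fold or more higher in 143B, against 20.1% of 24467 peaks, with 0 of 5 at 2-fold or more lower, against 21.4%. In HOS 3 of 5 were 2-fold or more lower, against 8.74%, and 0 of 5 were 2-fold or more higher, against 24.4%. Both at once held for FDFT1 and the ACLY end peak, against 1.73% of peaks, and as a gene sum for FDFT1 alone, against 2.79% of gene sums. The members were chosen on these contrasts, so the counts describe the choice. Across the lines together, the edgeR quasi-likelihood test with cell line as a block called 0 of 24467 peaks (0%) at an adjusted p of 0.05, with 945 at an unadjusted p under 0.05. DESeq2 called 0 (500 unadjusted) and limma-trend 0 (1090 unadjusted). These fits look for a shift common to both lines and leave 1 residual degree of freedom. They therefore cannot decide on opposite shifts such as those of FDFT1 and the ACLY end peak.

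In 143B the place of a peak in its gene went with the direction of its shift, in the members and in well-counted peaks of coding genes. In HOS all 5 member peaks were below 0 whatever their place. Strands were taken from the RefSeq promoter table. Well-counted peaks, taken as those with at least 50 counts on average in a coding gene, were split by place. The 883 that lay up to 500 bp from the transcript end had medians of 0.81 in 143B and -0.69 in HOS, and 85.7% and 14.9% of them were above 0. The 191 peaks within 500 bp of the transcript start had -1.23 in 143B, with 14.1% above 0, and -0.33 in HOS. The 5074 internal peaks had -0.89 in 143B, with 26.1% above 0, and -0.02 in HOS. Under the other scalings the share of end peaks above 0 ran from 83.8% to 89.6% in 143B and from 9.51% to 42.4% in HOS. Being higher in 143B and lower in HOS was therefore the usual pattern of end peaks, held by 77.1% of them against 15.98% of internal peaks. The SREBF2 and ACLY end peaks lay in the first class, and the internal ACLY and ACSL3 peaks in the second. The strand of FDFT1 was not in the table used, and its peak was set against the 1292 peaks near either end, of which 63.8% had this pattern.

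Set against its own class, SREBF2 was an ordinary end peak. It lay 0.33 above the end-peak median in 143B and 0.09 above it in HOS, and 25.8% of end peaks had a higher 143B shift. Of end peaks 35.7% were 2-fold or more higher in 143B and 28.8% were 2-fold or more lower in HOS, against 4.87% and 1.7% the other way. The ACLY end peak lay 0.39 above the median in 143B and -0.83 from it in HOS, where 7.36% of end peaks were lower still. FDFT1 lay 0.92 above the median of peaks near either end in 143B, with 6.97% higher, and -0.79 from it in HOS, with 10.4% lower. That class also holds peaks at transcript starts, so FDFT1 is not ranked on the same scale as ACLY and SREBF2. Set against the end-peak median, FDFT1 lay 0.80 above it in 143B and -0.71 from it in HOS. The difference between the lines was larger than that of FDFT1 in 3.33% of peaks near an end, larger than that of the ACLY end peak in 6.68% of end peaks, and larger than that of SREBF2 in 38.1%. These shares describe a place in a distribution and are no test, since the members were chosen with these values known.

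Among the internal peaks, ACSL3 was ordinary too. It lay 0.11 above the class median in 143B, where 45.8% of internal peaks were higher, and -0.36 from it in HOS, where 34.4% were lower. The internal ACLY peak was ordinary in 143B, 0.10 above the median, and far down in HOS, -1.97 from the median, where 1.06% of internal peaks were lower. Of the members' peaks it had the lowest HOS shift, and it is the peak with 315 counts in HOS NC and 101 in HOS sgNAT10.

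**Figure D2:**
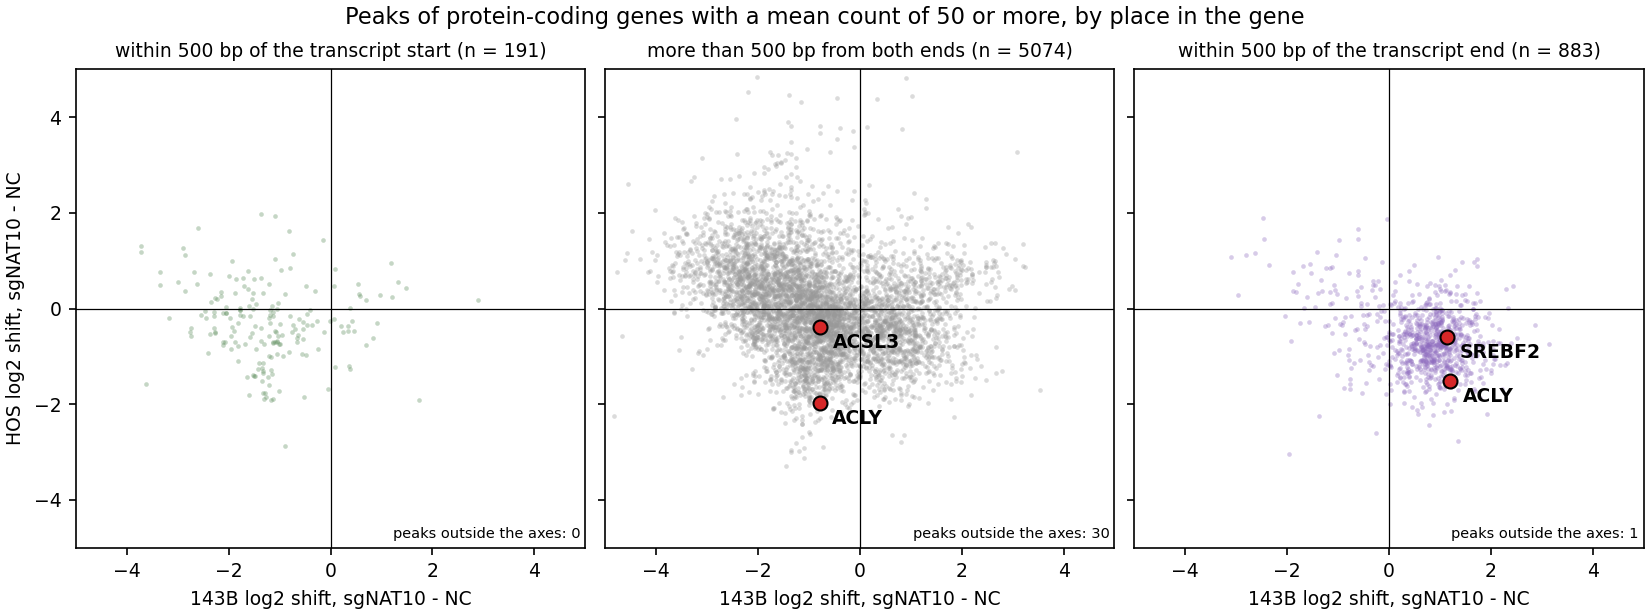
Log2 shift (sgNAT10 minus NC) in 143B (horizontal axis) and HOS (vertical axis) of well-counted peaks of protein-coding genes, 1 point per peak, in panels by place: 191 at transcript starts, 5074 internal and 883 at transcript ends, with member peaks in red. The end peaks centre on 0.81 and -0.69, where SREBF2 (1.14 and -0.60) and ACLY (1.20 and -1.52) lie, and FDFT1 is not drawn because its strand was not in the table used.

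Within 1 gene and library the ratio of end to internal counts needs no scaling between libraries. For ACLY the end peak had 0.766 counts per internal count in 143B NC and 3.07 in 143B sgNAT10. In HOS the ratio was 0.581 in NC and 0.802 in sgNAT10. The change of this ratio on the log2 scale was 1.996 (1.501 to 2.49) in 143B and 0.47 (-0.03 to 0.96) in HOS, so the HOS interval holds 0. Of 282 genes with enough counts at both places, 94.0% had a change above 0 in 143B, with a median of 1.38, and 58.5% in HOS, with a median of 0.11. A larger change than that of ACLY was seen in 24.5% of these genes in 143B and in 18.8% in HOS.

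In 143B a like change was seen in SCD and ELOVL1, the other genes of the lipid lists with enough counts at both places. SCD, the desaturase that makes monounsaturated fatty acids, had 4 internal peaks between -2.46 and -1.92 in 143B, and 2 peaks near its end at -0.59 and 1.08. In HOS all SCD peaks lay between -0.74 and -0.41. The end-to-internal ratio of SCD changed by 2.56 (2.39 to 2.74) in 143B and -0.22 (-0.36 to -0.07) in HOS. ELOVL1, an elongase of very long fatty acids, had 0.71 at its end peak and -0.81 at its internal peak in 143B, and -0.95 and -1.06 in HOS. Its ratio changed by 1.53 (1.08 to 1.99) in 143B and 0.10 (-0.31 to 0.51) in HOS.

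**Figure D3:**
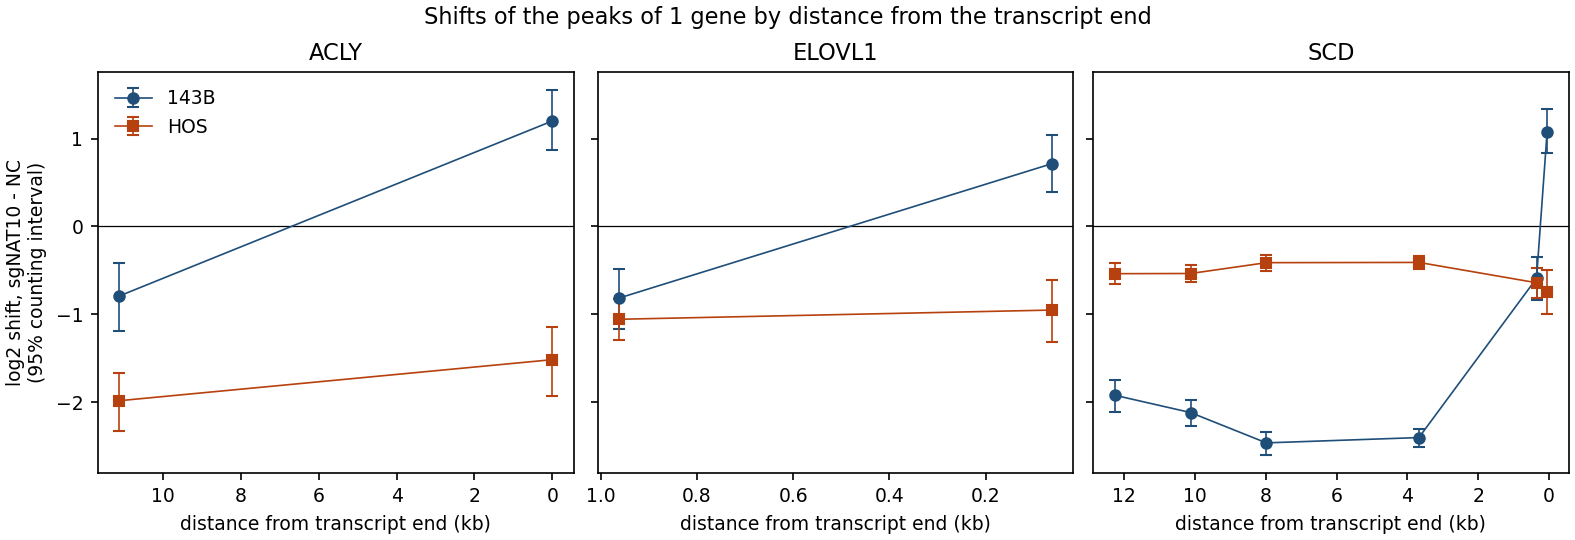
Log2 shift (vertical axis) of each peak of ACLY, ELOVL1 and SCD with a mean count of 50 or more against its distance from the transcript end in kb (horizontal axis, end at the right), with 143B in blue, HOS in orange and bars for the 95% counting interval. In 143B the last peak of each gene is above 0 (1.20, 0.71 and 1.08) and the internal peaks are below it, while the HOS peaks of each gene lie closer together.

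The other genes of the pathway were taken from lists of known lipid genes. Some genes of the sterol lists are not reported here, so their counts describe the genes shown and not the pathway as a whole. Of 21 sterol synthesis enzymes followed, 5 had an assigned and counted peak, FDFT1 among them. In 143B 4 of the 5 were 2-fold or more higher, and in HOS 5 of 5 were 2-fold or more lower, with medians of 1.61 and -1.40. Of all gene sums 20.4% were 2-fold or more higher in 143B and 12.7% were 2-fold or more lower in HOS, with medians of 0.17 and 0.04. The peaks of FDPS, MSMO1 and LBR lay at transcript ends and those of FDFT1 and SQLE near a gene end without a strand, the places where most peaks of the whole table were above 0 in 143B and below 0 in HOS. With library totals alone, 2 of the 5 were 2-fold or more lower in HOS. FDPS, SQLE, MSMO1 and LBR had mean counts under 100 and are named after their values were seen. FDPS, which makes the farnesyl pyrophosphate that FDFT1 uses, had 35 and 174 counts in 143B (NC, sgNAT10) and 114 and 39 in HOS, which are shifts of 1.79 and -1.87, and its peak also overlaps the antisense gene RUSC1-AS1. SQLE, the squalene epoxidase that follows FDFT1, had 16 and 75 counts in 143B and 47 and 17 in HOS, which are shifts of 1.68 and -1.76. Thus the enzyme before squalene synthase and the one after it were high and low in the same pairs of libraries as FDFT1, on fewer counts. MSMO1, a sterol demethylating oxidase, had 1.496 and -1.06, and LBR, a sterol reductase of the nuclear envelope, 0.78 and -1.23.

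Sterol regulators and genes of cholesterol handling had 4 of 24 members with a counted peak, and SREBF2 was the only one above 0 in 143B and below 0 in HOS, against 26.8% of all gene sums. NPC1, which exports cholesterol from lysosomes, was lower in both lines, at -1.35 (-1.81 to -0.92) in 143B and -1.24 (-1.50 to -0.99) in HOS, from 2 internal peaks. ABCG1, a sterol exporter, had -1.44 in 143B and 4.47 in HOS, where 1 of its 16 peaks had 879 counts in NC and 25864 in sgNAT10. INSIG2 was the remaining member, with 26 to 41 counts in each library. No SREBF1, SCAP or INSIG1 value is given, as no peak was assigned to these genes.

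Fatty acid synthesis enzymes were divided. Of 29 genes 13 had a counted peak, with 9 above 0 in 143B and 9 below 0 in HOS. In 143B 3 were 2-fold or more higher and 4 were 2-fold or more lower, and in HOS 4 were 2-fold or more lower and 0 higher, with medians of 0.25 and -0.75. Of all gene sums 56.1% were above 0 in 143B, and 20.4% were 2-fold or more higher and 17.6% lower there. In HOS 51.6% were above 0, and 12.7% were 2-fold or more lower and 16.8% higher. The best counted genes were low in 143B. SCD as a sum had -1.97 (-2.03 to -1.91) in 143B and -0.48 (-0.52 to -0.43) in HOS. FASN, the fatty acid synthase that uses the acetyl-CoA of ACLY, had 3 internal peaks and -1.52 (-1.65 to -1.39) and -0.84 (-0.93 to -0.75). ELOVL7, from 1 internal peak, had -2.30 in 143B and 0.52 in HOS, and ACSF3, from internal peaks, -1.42 and 0.65. ELOVL1 had 0.01 and -1.02 as a sum. ACLY, with 0.41 and -1.80, had the lowest HOS shift of the 13.

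By place, the well-counted peaks of these sterol and fatty acid lists, acyl-CoA synthetases included, were split in the same way. Of 8 peaks at transcript ends 7 were above 0 in 143B and 8 were below 0 in HOS, with medians of 1.11 and -0.74. Among all 883 end peaks 85.7% were above 0 in 143B and 14.9% in HOS. Of 24 internal peaks 1 was above 0 in 143B and 15 were 2-fold or more lower, and in HOS 11 were above 0, with medians of -1.47 and -0.39. Among all 5074 well-counted internal peaks 26.1% were above 0 in 143B and 46.5% were 2-fold or more lower there. In HOS 49.4% of them were above 0. ABCG1 gave 7 of the 24 internal peaks, most of them well counted in HOS sgNAT10 alone. Without ABCG1, a choice made after the values were seen, 17 internal peaks remained, of which 1 was above 0 and 12 were 2-fold or more lower in 143B and 4 were above 0 in HOS, with medians of -1.47 and -0.54. The FDFT1 peak, near an end without a strand, was above 0 in 143B and 2-fold or more lower in HOS. The well-counted internal peak above 0 in 143B was that of ACACB (0.93). Internal peaks of these lists with fewer counts that passed the filter lay on both sides of 0 in 143B, most of them above it. Examples above 0 were HACD1 (1.496), ELOVL6 (1.13), ACSBG1 (0.75) and ACSL5 (0.48), and examples below 0 were ACSM3 (-1.13) and INSIG2 (-0.67). The split of internal peaks in 143B therefore describes well-counted peaks only.

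**Figure D4:**
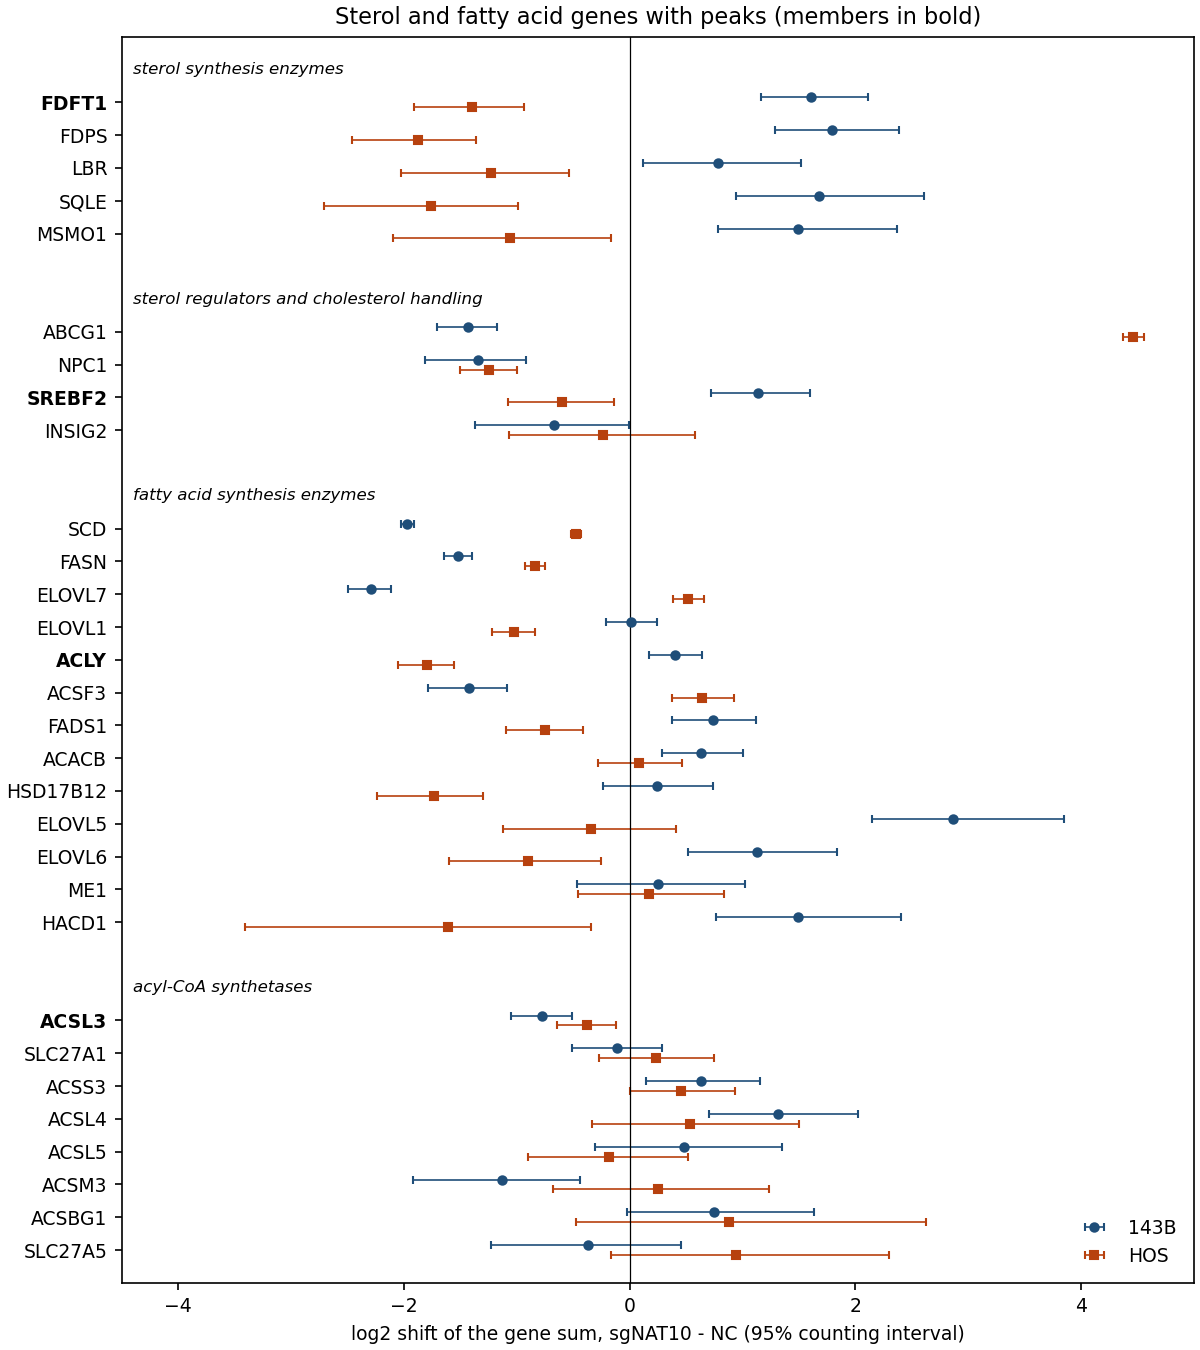
Log2 shift of the gene sum, sgNAT10 minus NC (horizontal axis), for each reported gene of 4 lipid lists that passed the filter on low counts (vertical axis, by list and mean count), with 143B as blue circles, HOS as orange squares, bars for the 95% counting interval and members in bold. The 5 sterol synthesis enzymes shown lie below 0 in HOS and above 0 in 143B, while the acyl-CoA synthetases show no common direction.

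ACSL3 was the best counted of the acyl-CoA synthetases. Of 18 genes 8 had a counted peak, with 4 above 0 and 4 below 0 in 143B, where 56.1% of all gene sums were above 0. In HOS 6 were above 0 and 2 below 0, where 51.6% of all gene sums were above 0. ACSL3 and ACSL5 were those below 0 in HOS, and the HOS intervals of the 6 genes above 0 all held 0. The others of this list had mean counts under 100. Among genes of lipid storage and glycerolipid synthesis 4 of 21 had a counted peak, and PLIN2, a coat protein of lipid droplets, had 57 and 204 counts in 143B (NC, sgNAT10) and 115 and 80 in HOS. Its shifts were 1.33 (0.91 to 1.79) and -0.87 (-1.31 to -0.45), from an internal peak. AGPAT3, an acyltransferase of phospholipid synthesis, had -1.57 and 0.17.

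Fatty acid oxidation is the opposite process. Of 25 genes 10 had a counted peak, with 9 above 0 in 143B, 6 of them 2-fold or more higher, and 8 below 0 in HOS, 2 of them 2-fold or more lower. Of all gene sums 56.1% were above 0 in 143B, and 20.4% were 2-fold or more higher there. In HOS 51.6% of all gene sums were above 0, and 12.7% were 2-fold or more lower. The list medians were 1.04 and -0.39. ECHS1, a hydratase of mitochondrial oxidation, had 1.03 (0.77 to 1.32) and -0.79 (-1.06 to -0.53), ETFB, an electron carrier subunit, 1.04 and -0.10, and ACADVL, a dehydrogenase of very long chains, 0.31 and -0.15. Each of these 3 genes had its peak at the transcript end. So did ECI2 and HADHB, and HADH and HSD17B4 had 1 of their 2 peaks there, while the peaks of ETFA, ACOX3 and CPT1A were internal. Of all 883 well-counted end peaks, 85.7% were above 0 in 143B and 35.7% were 2-fold or more higher. In HOS 14.9% of those end peaks were above 0 and 28.8% were 2-fold or more lower. The part of peak place in the list values was not tested.

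The NC libraries differed between the lines as well. HOS NC exceeded 143B NC by 1.38 (0.90 to 1.92) on the log2 scale for FDFT1, 1.28 (1.05 to 1.51) for ACLY and 0.69 (0.21 to 1.20) for SREBF2. For ACSL3 the difference was 0.05 (-0.21 to 0.31). These differences share the NC libraries with the shifts, so a high HOS NC value and a low HOS shift of the same gene are not separate observations. Per length of peak, the mean level over the 4 libraries was 69.9 CPM per kb for ACSL3, 39.8 and 36.0 for the internal and end peaks of ACLY, 36.1 for FDFT1 and 22.1 for SREBF2.

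The members differed in profile, and the nearest gene of each single member was not ranked. Likeness was measured as the Euclidean distance between log2 CPM profiles over the 4 libraries, each gene centred on its own mean. FDFT1 and SREBF2 were closest (0.66), ACLY lay 0.94 from FDFT1 and 1.05 from SREBF2, and ACSL3 lay 1.31 to 1.87 from the others. Likeness was ranked over 2801 coding genes that averaged at least 100 counts. Those closest to the mean profile of the members were TIMM23 (0.07), MRPL14 (0.10), TXNL4A (0.12), HSP90B1 (0.12) and HPRT1 (0.14). TIMM23 is a mitochondrial import channel, MRPL14 a mitochondrial ribosomal protein and HSP90B1 a chaperone of the endoplasmic reticulum. The members themselves lay 0.54 (SREBF2) to 1.10 (ACSL3) from that mean, so it is a summary that no single member matches.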

How the data were processed

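Per the labels, poly(A) RNA of 143B and HOS cells was fragmented and recovered with an anti-ac4C antibody. The authors deposited raw read counts per peak interval, 1 table per line. Their columns name line and genotype and were taken as acRIP from the name of the tables, RIP counts. The submitters' processing notes name GRCh38, FastQC, STAR, SAMtools and deepTools. How peaks were called, how reads were counted, whether by strand, and whether starts count from 0 are not given in the sources used here, so positions stand as deposited.

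Each peak went to the 1 coding gene whose RefSeq span it overlapped, failing that to the only annotated gene there, which placed 19111 peaks. Gene sums add the assigned peaks. Peaks were filtered with filterByExpr (minimum count 10, minimum total 15) and scaled with TMM. Shifts are differences in log2 CPM with a prior count of 1. Intervals are exact conditional binomial (shifts), exact Poisson (CPM) or Woolf (end-to-internal ratios). R 4.3.3, edgeR 4.0.16, limma 3.58.1 and DESeq2 1.42.0 were used, and the edgeR step was tested on simulated data.

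Named lipid genes are those with a mean count of 100 or more, at most 6 a list, and the 5 genes nearest to the mean profile of the members. Some listed genes are not reported here and were left out of the list counts. Alternatives changed the scaling, prior count, filter, peaks used and tool. Members and lists were chosen with earlier results of these data known. The split by strand was chosen after the counts were seen.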

Additional observations from a re-analysis of the deposited data

Results flagged for a closer look

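The lines went opposite ways beyond counting error for the FDFT1 peak, which is also its gene sum, with a 143B shift 3.01 (log2) above that of HOS. The same held for the ACLY end peak (2.71), the ACLY gene sum (2.20) and the SREBF2 peak, also its gene sum (1.74). Among the other lipid genes named by the rule on mean counts it held for ECHS1 (1.82) and PLIN2 (2.19), and in the other direction for ELOVL7 (-2.82), ACSF3 (-2.07) and ABCG1 (-5.90). Outside that rule it also held for FDPS (3.66), SQLE (3.43), HACD1 (3.10), MSMO1 (2.55), HADH (2.23), ELOVL6 (2.03), LBR (2.01) and FADS1 (1.49). By sign alone, 26.8% of all gene sums and 77.1% of the 883 end peaks were above 0 in 143B and below 0 in HOS. The peaks of SREBF2, ECHS1, FDPS, MSMO1, LBR and FADS1 lay at transcript ends, and those of PLIN2, HACD1 and ELOVL6 were internal. No share beyond counting error over all gene sums is given here. With 1 library per line and genotype the difference between lines was not tested.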

How the results depend on the processing

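Shifts of the 4 gene sums kept their direction under DESeq2-type and upper quartile factors, totals without the rRNA block, centring on protein-coding gene sums and a prior count of 5. With library totals alone HOS became -1.22 for ACLY, -0.82 for FDFT1, -0.023 for SREBF2 and 0.20 for ACSL3, and 143B became 0.75 for ACLY and -0.44 for ACSL3. By peak, the HOS shifts of ACLY were then -0.94 (end) and -1.40 (internal). ACLY in 143B was 1.20 from its end peak and -0.79 from its internal peak, which is also the sum without its highest peak, and in HOS -1.52 from its end peak. Chosen after the data were seen, TMM within each line gave HOS values of -2.07 for ACLY and -0.66 for ACSL3, and centring on 3' end peaks gave 143B values of -0.41 for ACLY, -1.59 for ACSL3, 0.80 for FDFT1 and 0.33 for SREBF2 and HOS values of -1.11, 0.31, -0.71 and 0.089. These scalings move every shift by 1 offset by construction.

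Peaks 2-fold or more higher and lower numbered 4927 and 5229 in 143B and 5968 and 2138 in HOS. Unfiltered, 143B had 9071 higher. A minimum mean of 100 counts left 5938 peaks, with 669 and 2042 in 143B and 668 and 904 in HOS. With library totals alone they were 7287 and 3841 in 143B and 10684 and 616 in HOS, with upper quartile factors 6389 and 4351 in 143B, and with TMM within each line 4391 and 3307 in HOS. The edgeR test without a filter called 1 peak, outside annotated genes. Of the sterol synthesis enzymes shown that minimum left 1, FDFT1, which was higher in 143B and lower in HOS, and library totals left 2 of 5 lower in HOS. Library totals gave 0 of 4 sterol regulators lower in HOS and 2 of 8 acyl-CoA synthetases higher in 143B. Under the same minimum 143B had 0 fatty acid synthesis enzymes and 0 acyl-CoA synthetases higher, and HOS had 2 fatty acid synthesis enzymes lower. No paired analysis was possible because the labels give no replicate numbers, other than the cell line block of the edgeR test, which sets NC against sgNAT10 within each line, and leaving out 1 library would leave no residual degree of freedom. Counts of 48 to 319 per member peak limit the precision of each shift.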
